A study of Mus musculus with 15 samples.

Results

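The genes for 5S ribosomal RNA were examined in mouse sperm DNA, as the CpGs of the deposited methylation tables that lay within 2 kb of a gene whose symbol starts with n-R5s in the RefSeq annotation of build mm10 (GRCm38.p6). The annotation holds 69 such genes, of which 51 are annotated as rRNA and 18 as pseudogene. Only 13 of the 204492 listed CpGs met the rule, and they belonged to 3 genes. Of these, 6 CpGs lay inside n-R5s28, an rRNA gene on chromosome 17, 4 lay in the flank of the pseudogene n-R5s92 on chromosome 9, and 3 lay in the flank of the pseudogene n-R5s5 on chromosome X. The values below therefore concern these 3 loci, and only at n-R5s28 do they come from positions inside a 5S gene.

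Methylation was measured by reduced representation bisulfite sequencing, in which MspI cuts genomic DNA at CCGG, CpG-rich fragments are sequenced after bisulfite treatment, and a cytosine that stays unconverted is read as methylated. The libraries came from sperm of male C57BL/6 mice of generation G1, 7 with the diet label Control and 8 with the diet label PR, which the design text of the series spells out as protein restricted. The labels give neither the age of the mice nor who ate the diet, a sampled mouse or a parent. No label ties libraries to an animal, a litter or a batch. The p-values here treat each library as independent, which the labels do not settle, and the spread between libraries may be technical. Library totals over the listed CpGs lay between 6650912 and 11841657 reads, and the median CpG was covered 26 to 42 times.

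5S rRNA is a structural RNA of the large ribosomal subunit. RNA polymerase III transcribes it from a promoter that lies inside the gene, where the zinc finger factor TFIIIA binds first, whereas RNA polymerase I transcribes the other cytoplasmic rRNAs as one 45S precursor from separate tandem repeats. 5S genes sit in tandem arrays, and mammalian genomes also hold dispersed copies and pseudogenes. Because copies resemble each other closely, a short read can fit more than one of them, and the sources used here do not say how such reads were placed.

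The main 5S array had no CpG in the data. On chromosome 8, 41 of the 69 genes, 40 of them annotated as rRNA, follow each other from 123538784 to 123622046 with a median step of 1702 bp. None had a listed CpG within 2 kb. The nearest listed CpG was 8013 bp away for the closest gene of the array and 52995 bp away for the farthest. The methylation of the tandem 5S genes was thus not analysed here, in contrast to the 45S block on chromosome 17, the stretch around the Rn18s-rs5 gene to which reads of the 45S repeat map, where 372 CpGs were listed at a mean coverage of 1286 reads.

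Of the other 28 n-R5s genes, spread over 15 chromosomes, 3 had a listed CpG within 2 kb, or 10.7%. With the array genes included, the share of n-R5s genes was 4.35%. Among the 4811 other annotated genes of up to 200 bp the share was 13.2%, a share given without a test. The median distance from a dispersed copy to the nearest listed CpG was 14391 bp. The next 3 genes beyond the limit of 2 kb were the rRNA gene n-R5s33 on chromosome 16, with its nearest CpG at 3265 bp, the pseudogene n-R5s41 on chromosome 15, at 4370 bp, and the pseudogene n-R5s197 on chromosome 3, at 4746 bp. Over the CpGs within 5 kb, n-R5s33 had 98.8% ± 0.868 (control) and 98.5% ± 1.70 (protein restricted), n-R5s197 at 99.2% ± 1.0 and 99.2% ± 0.874, and n-R5s41 at 68.4% ± 8.34 and 66.8% ± 4.85 (SD, n = 7 and 8). Inside the limit, the nearest CpGs of the flanking loci were 1589 bp from n-R5s5 and 1609 bp from n-R5s92.

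**Figure D1:**
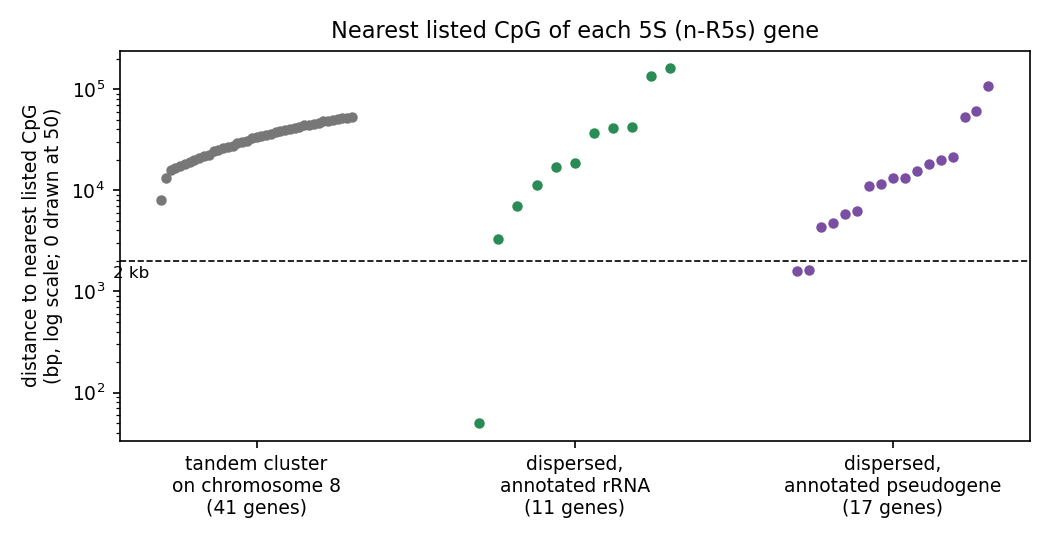
Distance in bp (log scale) from each of the 69 n-R5s genes to its nearest listed CpG, 1 point per gene, with the gene that holds CpGs inside it drawn at 50 bp. All 41 genes of the array on chromosome 8 lie at 8013 bp or more, and 3 dispersed genes lie under the dashed line at 2 kb.

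The reads placed inside n-R5s28 were partly methylated, and whether some of them came from other 5S copies was not tested. The gene spans 47848834 to 47848952 on chromosome 17 and lies outside any other annotated gene, with the small nuclear RNA gene Gm25201 as its nearest neighbour at 7849 bp. Its 6 listed CpGs stand at 47848857, 47848859, 47848863, 47848879, 47848896 and 47848925, a stretch of 69 bp within the 119 bp of the gene. The strand of the gene is not in the gene table, so positions are counted from its lower coordinate, where the CpGs lie 23 to 91 bp into the gene. Averaged over the 15 libraries these CpGs were at 64.2%, 64.9%, 63.9%, 64.3%, 61.5% and 64.6% in that order, a difference of 3.42 points between the highest and the lowest. The level is low among the genes of this list, which holds no CpG with fewer than 11 methylated reads in any library. CpGs with little methylation at ordinary depth are thus missing from the comparison. Over all 20801 genes with a listed CpG within 2 kb the median level was 97.8%, and 1.74% of genes were at or below the 63.9% of n-R5s28.

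Depth at n-R5s28 was ordinary among the listed CpGs. Its mean coverage was 32.0 reads, and 49.9% of all listed CpGs had that coverage or less. Whether some of its reads came from other copies of the gene was not tested with these depths. In 13 of 15 libraries all 6 CpGs had the same total count, and in the other 2 the totals differed by 1 read. The 6 CpGs are thus read on the same molecules and are not 6 independent measurements. At these depths the exact 95% binomial interval of a single CpG in a single library was between 26.8 and 43.8 points wide. Such an interval covers counting error only and takes each read as a separate molecule, which was not tested.

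Libraries differed widely at n-R5s28, and the highest and the lowest library were the same at all 6 CpGs. In control sperm, with counts summed over the CpGs, replicate 1 was at 50.7%, replicate 2 at 85.8%, replicate 3 at 62.2%, replicate 4 at 57.8%, replicate 5 at 48.7%, replicate 6 at 65.4% and replicate 7 at 72.6%. In protein restricted sperm, replicate 1 was at 45%, replicate 2 at 69.0%, replicate 3 at 71.6%, replicate 4 at 79.5%, replicate 5 at 60.2%, replicate 6 at 59.1%, replicate 7 at 63.6% and replicate 8 at 67.5%. The highest library was a control and the lowest a protein restricted one, 40.8 points apart, and 11 of the 15 lay between 50 and 75%. Within a library the 6 CpGs differed by 2.78 to 15.4 points, with a median of 6.98. In the highest library, control replicate 2, 5 CpGs had 23 methylated reads of 27 and 1 had 24 of 27, so that its exact 95% binomial interval at the first CpG ran from 66.3% to 95.8%. In the lowest, protein restricted replicate 1, the first CpG had 18 of 40, with an interval from 29.3% to 61.5%.

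**Figure D2:**
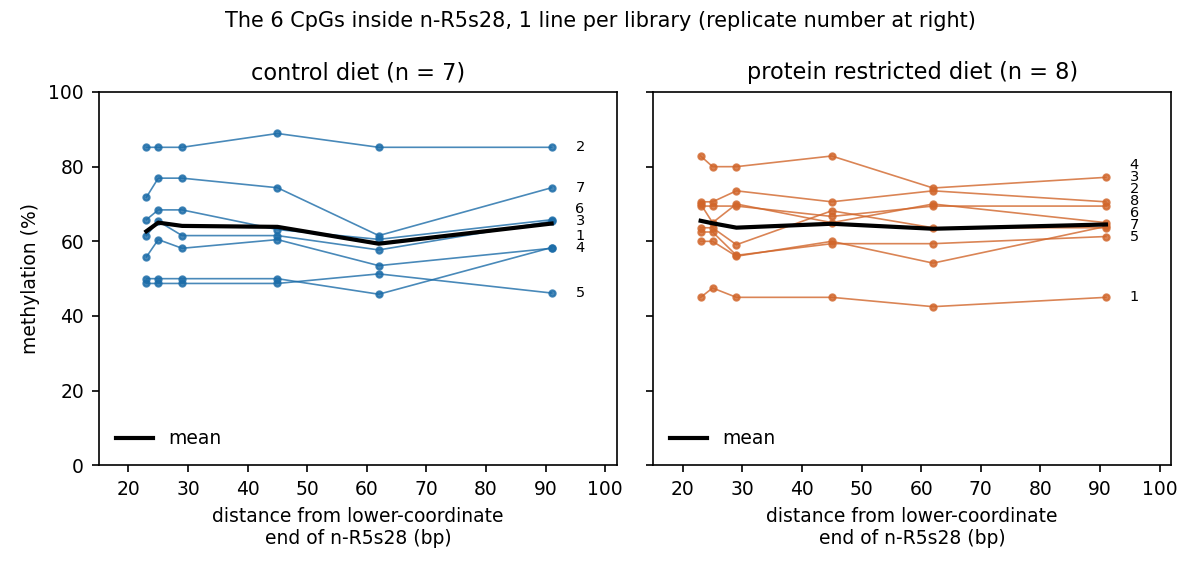
Methylation in percent of the 6 CpGs inside n-R5s28 against their distance in bp from the lower-coordinate end of the gene, 1 line per library, control at left (n = 7) and protein restricted at right (n = 8), the black line being the mean. Lines run nearly flat, with control replicate 2 on top at 85.2% or more and protein restricted replicate 1 at the bottom at 47.5% or less.

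The CpGs of n-R5s28 varied together. Over the 15 libraries the Pearson correlation between 2 of its CpGs lay between 0.87 and 0.97 in the 15 pairs, given as a description. At n-R5s92 and n-R5s5, whose CpGs had the same total count in 14 of 15 libraries each, these correlations were lower, from -0.31 to 0.30 in 6 pairs and from 0.12 to 0.28 in 3. These flank CpGs lie nearer to 100%, which 8 libraries reached at 115624910 and 9 at 18325158. At the other flank CpGs from 0 to 3 libraries reached it. Whether level bears on these correlations was not tested. The dispersion is the spread between libraries of a diet relative to counting noise, and it equals 1 when counting alone acts. Over the 6 CpGs of n-R5s28 it had a median of 1.97 and ran from 1.82 to 2.23. At n-R5s5 its median was 1.79 and its highest value 1.83, and at n-R5s92 its median was 1.25. Among 4184 other CpGs at 50 to 80% mean methylation and a mean coverage of 25 to 40 reads, the median dispersion was 1.08, and 7.12% had a dispersion of at least 1.97. The median SD over libraries was 11.5 points at the n-R5s28 CpGs and 8.35 points at those other CpGs. These shares describe the position of the locus and are no test, since neighbouring CpGs share reads.

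The list itself sets a lower limit on what could be seen there. No listed CpG has fewer than 11 methylated reads in any library, a limit whose origin the sources used here do not state. At n-R5s28 a count of 11 corresponds to 25.6% in the deepest library, control replicate 4, and to 55% in the shallowest, protein restricted replicate 8 with 20 reads. Of the 90 values of 6 CpGs in 15 libraries, 1 stood at 11 methylated reads, in control replicate 1. In 4 libraries, control replicate 1 and protein restricted replicates 6, 7 and 8, a CpG had 14 methylated reads or fewer. In those 3 protein restricted libraries the lowest CpG stood 8.33, 9.09 and 10 points above the limit. A 5S gene with little methylation at this depth would not appear at all. Level and coverage at n-R5s28 were compared over the 15 libraries, with a Pearson correlation of -0.15 (permutation p = 0.598) and a Spearman correlation of -0.16 (permutation p = 0.562). Without the 2 libraries farthest from the median coverage r was -0.14, and it was -0.15 within control and -0.13 within protein restricted sperm. This was the 1 relation with depth computed.

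**Figure D3:**
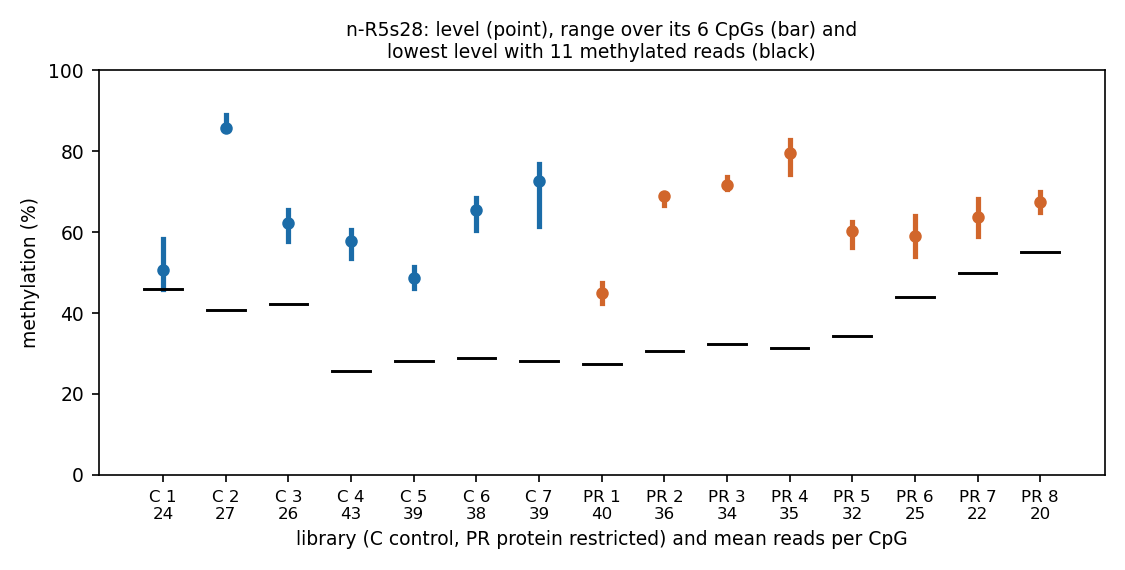
Methylation in percent of n-R5s28 in each library (point), with the range over its 6 CpGs (coloured bar) and the percent that 11 methylated reads make at that library's depth (black line), with mean reads per CpG under each name (C control, PR protein restricted). Control replicate 1 reaches the limit of 45.8%, and the 2 shallowest protein restricted libraries have limits of 50% and 55%.

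The flanks of the pseudogenes n-R5s92 and n-R5s5 were highly methylated. At n-R5s92 (chromosome 9, 115626600 to 115626718) the 4 CpGs lie from 115624910 to 115624991, 1609 to 1690 bp outside the gene on its lower-coordinate side, and none of them within another gene. Control replicates 1 to 7 were at 90.2%, 91.7%, 92.7%, 94.3%, 95.5%, 92% and 95.7%. Protein restricted replicates 1 to 8 were at 94.0%, 95.7%, 93.0%, 96.7%, 95.5%, 90.2%, 99.1% and 93.5%. The groups overlap, with the single highest library being a protein restricted one. Going toward the gene, the 4 CpGs averaged 97.9%, 94.6%, 92.6% and 90.8% over the libraries. Their median dispersion was 1.25.

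At n-R5s5 (chromosome X, 18323444 to 18323562) the 3 CpGs lie from 18325151 to 18325164, 1589 to 1602 bp outside the gene on its higher-coordinate side. In sperm the X chromosome is carried only by the cells that did not receive the Y. The mean coverage was 29.4 reads, against 32.3 at n-R5s92 on an autosome, a difference whose cause was not tested. Control replicates 1 to 7 were at 98.0%, 84.6%, 97.3%, 94.7%, 96.3%, 91.0% and 94.7%, and protein restricted replicates 1 to 8 at 96.0%, 94.2%, 92.5%, 94.9%, 93.5%, 88.9%, 97.6% and 86.1%. Control replicate 2 was the lowest library here and the highest at n-R5s28. The 3 CpGs averaged 92.6%, 98.0% and 89.5%, with a median dispersion of 1.79.

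At none of the 3 5S loci was the difference between diets larger than the spread between libraries. The comparison asked whether protein restricted sperm differed from control sperm. At n-R5s28 the mean level was 63.3% ± 12.9 (SD, n = 7) with the control diet and 64.4% ± 10.2 (SD, n = 8) with the protein restricted diet, and 7 of the 8 protein restricted libraries lay within the control range. The difference of 1.13 points had a 95% interval of -12.0 to 13.8, by inversion of the exact permutation test (two-sided, 6435 arrangements of the diets) (exact permutation p = 0.853). Its sign turned without control replicate 1 (-0.974 points), control replicate 5 (-1.30) or protein restricted replicate 4 (-1.03), and it was 4.88 points without control replicate 2.

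At n-R5s92 the control mean was 93.2% ± 2.08 (SD, n = 7) and the protein restricted mean 94.7% ± 2.68 (SD, n = 8). The difference of 1.58 points had an interval of -1.13 to 4.27 (exact permutation p = 0.229), and 6 of 8 protein restricted libraries lay above the control mean. At n-R5s5 the means were 93.8% ± 4.65 (SD, n = 7) and 93.0% ± 3.78 (SD, n = 8), a difference of -0.850 points with an interval of -5.44 to 3.91 (exact permutation p = 0.699). That difference was 0.127 points without protein restricted replicate 8 and -2.38 points without control replicate 2.

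In the quasi-binomial test of summed counts over every gene with 2 kb flanks, 0 of the 3 loci passed an adjusted p of 0.05, against 0% of all 20801 genes. At an unadjusted p under 0.05 there were 0 of 3, against 3.06% of all genes. The unadjusted p of the quasi-binomial test was 0.842 at n-R5s28, 0.268 at n-R5s92 and 0.745 at n-R5s5, and the adjusted p was 1 at each. The limma test on percentages also called 0 genes, with 981 at an unadjusted p under 0.05. Among single CpGs 0 of 13 passed, against 0% of all 204492, and at an unadjusted p under 0.05 there were 0 of 13, against 3.79% of all. limma on percentages called 0 CpGs, with 9320 at an unadjusted p under 0.05 and 0 of the 13 among them. The smallest unadjusted p of the 13 was 0.0553 in the quasi-binomial test, with an adjusted p of 1, at the middle CpG of n-R5s5 (18325158), with 99.4% ± 1.72 in control libraries against 96.8% ± 3.09 in protein restricted ones. At n-R5s28 the largest difference at a single CpG was 4.0 points, at 47848896, with 59.4% ± 12.6 in control libraries against 63.4% ± 11 in protein restricted ones.

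**Figure D4:**
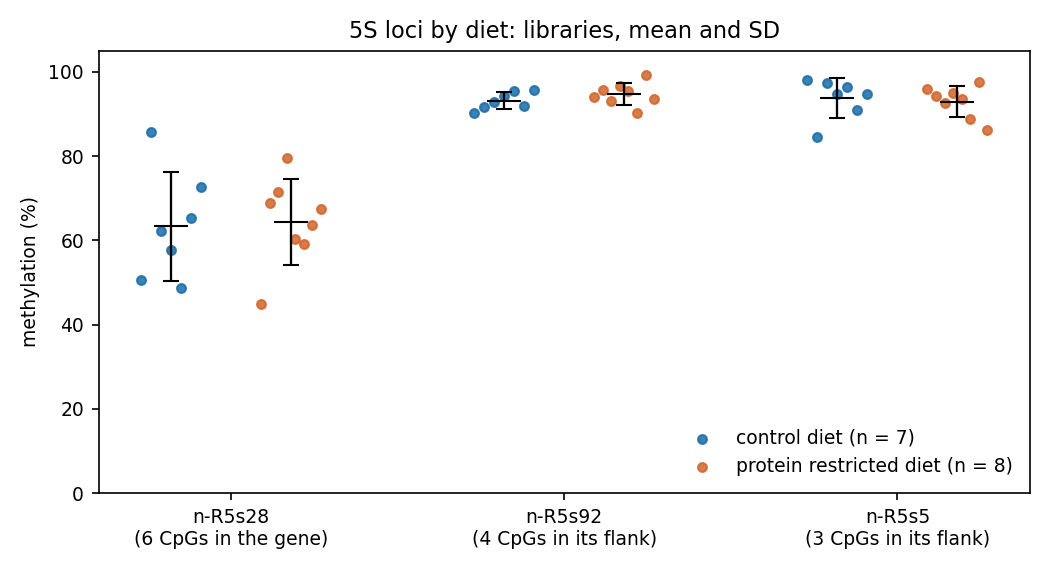
Methylation in percent at the 3 5S loci, 1 point per library, control in blue (n = 7) and protein restricted in orange (n = 8), with the mean as a bar and the SD as error bars. The diets overlap at each locus, and n-R5s28 lies lower and spreads more, from 45% to 85.8%, than n-R5s92 and n-R5s5.

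Averaged over the 13 CpGs, methylation had a control mean of 79.5% ± 5.09 (SD, n = 7) and a protein restricted mean of 80.3% ± 5.08 (SD, n = 8). The difference of 0.804 points is given as a description. This mean joins the 6 CpGs inside n-R5s28 with 7 flank CpGs, and no locus had that mean level. The 7 flank CpGs alone were at 93.4% ± 2.52 and 94.0% ± 2.93.

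None of the 3 loci had a correlation with the 45S repeats that passed the adjustment. The 45S block of chromosome 17 ranged from 21.4% to 50.1% between libraries, with control replicate 3 the highest. At n-R5s28 the Pearson correlation with the block over the 15 libraries was 0.31 (permutation p = 0.266, adjusted p = 0.943 over all genes) and the Spearman correlation 0.43 (permutation p = 0.118, adjusted p = 0.959). Without the 2 libraries farthest from the block's median r was 0.40, without control replicate 3 alone 0.43, within control 0.30 and within protein restricted sperm 0.33. At n-R5s92 r was -0.0075 (permutation p = 0.979, adjusted p = 0.999) and rho 0.043 (permutation p = 0.882, adjusted p = 0.997), with r = 0.13 without the 2 farthest libraries, -0.22 within control and 0.047 within protein restricted sperm. At n-R5s5 r was -0.082 (permutation p = 0.771, adjusted p = 0.982) and rho -0.23 (permutation p = 0.405, adjusted p = 0.976), with r = -0.31 without the 2 farthest libraries, 0.025 within control and -0.22 within protein restricted sperm. Control replicate 3, at 50.1% in the 45S block, was at 62.2% in n-R5s28, near the middle of the control libraries. Of the 20783 genes tested in this way, 0 passed an adjusted p of 0.05, or 0%, and 5.63% had an unadjusted p under 0.05, against 0 of the 3 loci. The median r over all genes was 0.040.

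The level of n-R5s28 also had a positive correlation with the mean of all other CpGs, which lay between 95.3% and 95.7% in the libraries, and this relation did not pass the adjustment either. It was added after the files were seen. The Pearson correlation was 0.61 (permutation p = 0.0148, adjusted p = 0.640 over all genes) and the Spearman correlation 0.75 (permutation p = 0.00184, adjusted p = 0.562), with r = 0.82 without the 2 libraries farthest from the median, 0.56 within control and 0.70 within protein restricted sperm. Of all genes 0% passed and 7.05% had an unadjusted p under 0.05. The 45S block itself followed that mean (r = 0.83, given as a description), and once that mean was taken out of both, the correlation of n-R5s28 with the 45S block was -0.46 (adjusted permutation p = 0.896). At n-R5s92 and n-R5s5 the correlations with the mean were 0.094 and -0.078 (permutation p = 0.738 and 0.780, adjusted p = 0.971 and 0.975).

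**Figure D5:**
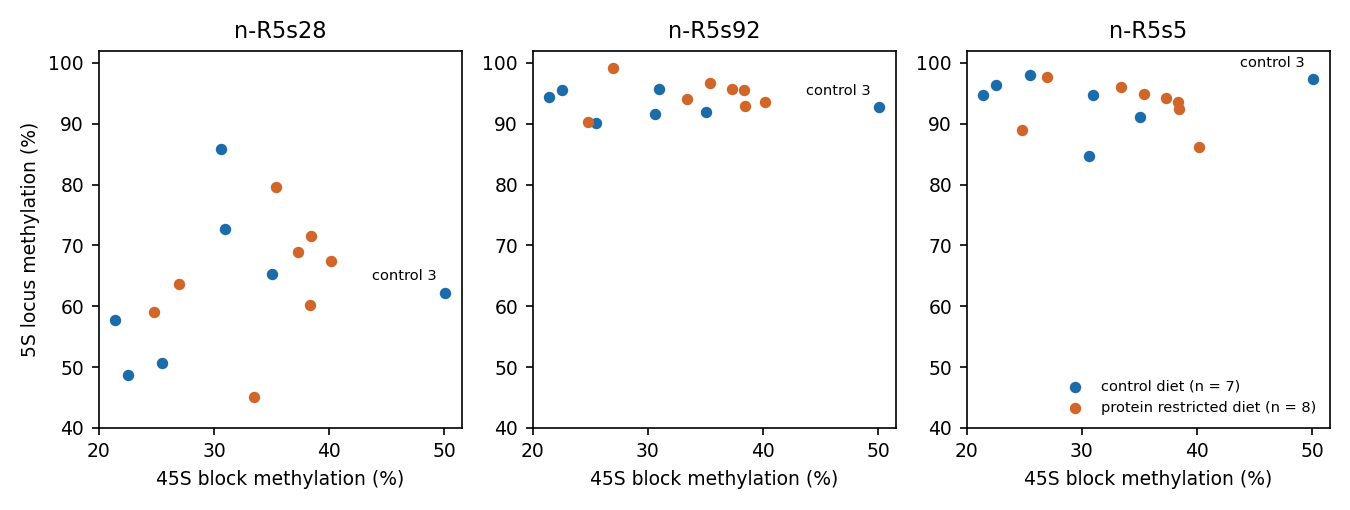
Methylation in percent of each 5S locus against that of the 45S block on chromosome 17, 1 point per library, control in blue and protein restricted in orange, with control replicate 3 named. The vertical axes start at 40%, and the points of n-R5s28 scatter from 45% to 85.8% with r = 0.31.

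tRNA genes, the other large family of short genes that RNA polymerase III transcribes from internal promoters, had CpGs within 2 kb at 36 of 403 genes, 70 CpGs in all. Their median level was 96.5%, with 9 of 36 genes under 80%, against 5.60% of all genes. Some of these genes share CpGs, since they lie next to each other, which leaves 31 distinct sets. CpGs inside a gene were listed at 3 tRNA genes. The 4 CpGs inside n-TEctc4, a glutamate tRNA gene, averaged 98.4% ± 1.31 over the libraries, and the 2 inside n-TKctt4, a lysine tRNA gene, 98.0% ± 2.18. The 2 CpGs inside n-TLtaa2, a leucine tRNA gene on chromosome 13, averaged 73.1% ± 5.07 and ranged from 61.7% to 81.1% at a mean coverage of 37.2 reads (SD, n = 15). n-R5s28, with an SD of 11.1 points over the same libraries, was thus lower and more spread than these 3. This comparison is given without a test. CpGs in the flanks of some other tRNA genes were lower than n-R5s28. They averaged 20.9% at n-TIaat10 and n-TFgaa1, which share 1 CpG, 36.5% ± 9.0 at n-TWcca8 and 57.9% at n-TKctt25 and n-TKctt26. Of the 36 tRNA genes 0 passed between diets, against 0% of all genes, and 1 had an unadjusted p under 0.05 in the quasi-binomial test, against 3.06% of all genes.

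Genes whose products transcribe, bind or carry 5S rRNA were taken from a list of 38 symbols, 37 of which are in the annotation. CpGs within 2 kb of the gene were listed for 23 of them, not including Gtf3a, which encodes TFIIIA. None of the 23 passed in either direction in the quasi-binomial test or in limma, against 0% of all genes. At an unadjusted p under 0.05 there were 0 of 23 in the quasi-binomial test, against 3.06% of all genes. In protein restricted sperm 7 had a higher mean and 16 a lower one, beside 10315 and 10470 of all genes, which is given without a test. The median difference was -0.229 points in the list and -0.0058 over all genes. Their median level was 97.6%, close to that of all genes. At Gtf3c1, the largest subunit of TFIIIC, which TFIIIA recruits to the 5S gene, 5 CpGs were at 97.8% ± 1.33 (SD, n = 7) and 96.5% ± 1.33 (SD, n = 8). At Brf1, a subunit of TFIIIB, the values were 98.6% ± 1.26 and 98.6% ± 0.563, and at Polr3a, the catalytic subunit of RNA polymerase III, 97.9% ± 0.534 and 97.7% ± 1.18. Rpl5 and Rpl11 encode the ribosomal proteins that bind 5S rRNA before it joins the ribosome. They were at 92.1% ± 4.40 and 91.4% ± 3.13, and at 98.9% ± 1.04 and 98.7% ± 1.29. At Mdm2, the ubiquitin ligase that the free 5S particle binds, the values were 95.5% ± 1.55 and 94.3% ± 2.11. Polr1c, which encodes a subunit shared by RNA polymerases I and III, was the single gene of the list under 80%, at 51.7% ± 5.72 and 50.5% ± 3.92 over 2 CpGs in its flank. At Polr1d, the partner of Polr1c, the difference of -2.16 points was the largest of the list (97.3% ± 1.58 and 95.2% ± 2.69, quasi-binomial unadjusted p = 0.0587, adjusted p = 1).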

How the data were processed

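Sperm DNA of 15 libraries was grouped by the diet in the labels (7 control, 8 protein restricted), with replicates numbered in accession order within a diet. The deposited files hold raw counts of methylated reads and of all reads at the same 204492 CpG positions, per the file headers. The submitters' processing notes list Bismark 0.7.12, Bowtie2 2.1.0 and mm10, with no roles. Trimming, filtering and the handling of reads that fit several copies are not stated in the sources used here.

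The 3 loci, the gene lists and the tests were chosen with earlier results of these data known. Named loci were to be those with CpGs inside a 5S gene and those at the extremes of level, spread, coverage, p and r. With 3 loci, all are named. Genes come from a RefSeq table of GRCm38.p6, which gives no strand, and n-R5s genes whose 2 kb windows overlap were merged into 30 loci. No 5S gene matched the RefSeq promoter sequences, so no sequence is shown.

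A locus's percentage divides methylated by total counts, both summed over its CpGs. Each CpG and each gene with 2 kb flanks entered a quasi-binomial logistic regression on diet (F test, 13 residual degrees of freedom, dispersion at least 1), with Benjamini-Hochberg adjustment over the whole table. CpGs of a locus share reads, which raises the dispersion of summed counts and so enters the test. Single values were compared with an exact permutation test over 6435 splits, and correlations were tested with 100000 permutations, adjusted over all genes outside the 45S block. Alternatives were limma 3.58.1 on percentages and logit values (pseudocount 1), other distances and coverage minimums, no floor on the dispersion, and each library left out. Python 3.11.15 and R 4.3.3 were used. The quasi-binomial and correlation tests were checked on simulated data. The simulated counts had counting noise only, so the check does not cover extra spread between libraries or shared reads.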

Additional observations from a re-analysis of the deposited data

Results flagged for a closer look

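Each locus and CpG was searched for a library far from the rest of its diet, and 4 of 40 groups had one, where chance gives about 1 in 20. That rate does not hold for CpGs at 100%, and CpGs of a locus share reads. Control replicate 4, whose total count was also the highest, covered the n-R5s92 CpGs with 75 reads, where coverage in the remaining control libraries ran from 23 to 31. The CpG 62 bp into n-R5s28 had 85.2% in control replicate 2, and the next control library had 61.5%, the lowest 45.8%. The CpG 1714 bp from the lower-coordinate end of n-R5s5 had 95.5% in control replicate 6 and 100% in every other control library, so that any lower value would have stood out. The CpG 1720 bp from that end had 76.2% in protein restricted replicate 6, and the remaining libraries of that diet spanned 87.5% to 96.4%.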

How the results depend on the processing

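No 5S CpG or locus passed between diets under any alternative run, and no 5S locus passed in its correlation with the 45S block. Leaving out each library in turn kept each of these counts at 0. Without the floor on the dispersion 194 of all CpGs and 1 of all genes were called, none of them a 5S CpG or locus. The difference of the mean over 5S CpGs lay between -0.343 and 2.1 points with a library left out. With runs of consecutive title numbers summed into 3 control and 4 protein restricted units it was -0.0410 points, and the n-R5s28 difference was -0.752 points. With a library left out, the n-R5s28 difference ran from -1.30 to 4.88, the n-R5s5 difference from -2.38 to 0.127 and the n-R5s92 difference from 0.949 to 2.22 points, and the last was 0.303 points with CpGs within 5 kb. The correlation with the 45S block ran from 0.20 to 0.43 at n-R5s28, from -0.33 to 0.057 at n-R5s5 and from -0.15 to 0.14 at n-R5s92 with a library left out. With the title runs summed it was -0.46 at n-R5s5. At n-R5s92 it was 0.17 with CpGs within 5 kb, 0.11 against Rn18s-rs5 alone and 0.043 as Spearman's rho, and at n-R5s28 it was -0.46 once the mean of all other CpGs was taken out. The cause of these changes, some in size and some in sign, was not tested. With at least 20 reads in every library, or 30 on average, n-R5s5 dropped out, and within 500 bp n-R5s28 alone was left. No paired analysis was possible because the labels give the diets no shared replicate numbers. Depth limits a CpG of n-R5s28 to intervals of at least 26.8 points in 1 library.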
